A study of Mus musculus with 2 samples.

Results

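The genes described here are interferon gamma and the cytokines, receptors and transcription factor that drive its expression, measured by single-cell RNA sequencing in lungs of mice with 4T1 tumors. They are 10 of the 32285 genes in the count matrices, chosen by symbol: Ifng, Tbx21, Il12a, Il12b, Il12rb1, Il12rb2, Il15, Il15ra, Il18 and Il18r1. The choice used no threshold on a measured value. The mice were 12-week-old female BALB/c mice inoculated in the mammary fat pad with 100000 cells of 4T1, a metastatic mouse mammary carcinoma line. The saline group received intravenous DPBS, and the NP group received intravenous cargo-free nanoparticles (NPs) of the polymer PLG, in 5 doses given every 3 days from day 1, and lungs were taken on day 14. Both groups carried tumors, and there was no tumor-free group. Each group was 1 library of dissociated lung cells after red cell lysis, pooled from 4 mice by the labels and from 5 by the methods, so there were no replicates and no tests. Every interval below is a 95% interval that covers counting error only, not the spread between mice or between libraries. Intervals of UMI counts, shares of UMIs and ratios take each UMI as an independent draw, so they also leave out the spread between cells.

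Interferon gamma is the main activating signal that NK cells and T cells give to macrophages, and it induces antigen presentation in most cells. Its gene is switched on in these lymphocytes by IL-12, IL-15 and IL-18, cytokines made largely by myeloid and stromal cells, and by signals through the T cell receptor. IL-12 acts through a receptor of Il12rb1 and Il12rb2 and through STAT4, IL-18 acts through Il18r1 and its partner Il18rap and through MyD88, and IL-15 is presented to NK cells and T cells by Il15ra on neighboring cells. Tbx21 encodes T-bet, a T-box transcription factor that binds regulatory DNA of Ifng.

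On GRCm38 (GENCODE annotation), Ifng lies on the plus strand of chr10:118441046-118445892 and Il12rb2 on the minus strand of chr6:67291318-67376188, where it overlaps Serbp1 on the other strand. Il18r1 lies on the plus strand of chr1:40465552-40500854, and Il18 on the plus strand of chr9:50554827-50581840, where it overlaps Bco2 and Tex12 on the other strand. Promoter windows of 300 bases, from 250 before to 50 after each annotated start, were taken from RefSeq (GRCm38.p6) and covered 8 of the 10 genes with 12 starts, Il12rb1 and Il15 not being among them. They were searched on both strands for the letters TTCNNNGAA, the GAS element bound by STAT proteins, which 8.30% of all 32851 promoter windows held. The windows of Ifng, Il12rb2 and the third start of Il18r1 held these letters, and those 3 windows are shown 5′ to 3′ with the match in capitals, since they are the members' promoters with a STAT-type element. They are Ifng at chr10:118440796-118441095, Il12rb2 at chr6:67376139-67376438 on the minus strand and Il18r1 at chr1:40465756-40466055.
Ifng: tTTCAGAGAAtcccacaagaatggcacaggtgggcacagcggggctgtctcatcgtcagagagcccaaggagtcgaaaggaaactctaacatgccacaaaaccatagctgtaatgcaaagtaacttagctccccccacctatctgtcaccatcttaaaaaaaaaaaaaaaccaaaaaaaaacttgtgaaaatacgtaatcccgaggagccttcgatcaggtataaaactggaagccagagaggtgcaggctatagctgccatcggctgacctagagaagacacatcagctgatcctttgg
Il12rb2: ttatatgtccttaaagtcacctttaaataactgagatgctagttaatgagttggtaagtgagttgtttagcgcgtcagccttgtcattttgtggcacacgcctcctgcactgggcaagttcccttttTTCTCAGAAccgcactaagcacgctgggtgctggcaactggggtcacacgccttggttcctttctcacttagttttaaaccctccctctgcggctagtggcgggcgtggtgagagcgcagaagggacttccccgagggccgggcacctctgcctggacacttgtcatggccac
Il18r1: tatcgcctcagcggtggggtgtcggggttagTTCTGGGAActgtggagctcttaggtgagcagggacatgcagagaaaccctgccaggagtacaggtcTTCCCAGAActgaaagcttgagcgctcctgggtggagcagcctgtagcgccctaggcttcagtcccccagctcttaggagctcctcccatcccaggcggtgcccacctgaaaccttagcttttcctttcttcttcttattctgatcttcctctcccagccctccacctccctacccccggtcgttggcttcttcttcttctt
The first base of the match lay at -249 in Ifng, at -123 in Il12rb2, and at -219 and -152 in Il18r1, counted from the start. The 6 letters GGTGTG, the core of a T-box site, were in 19.05% of all windows. Among the members they were in 1 window each of Il12a, Il12b, Il15ra and Il18r1, and not in the window of Ifng. The same core with an A on either side was in 1.28% of all windows, and GAAA repeated after any pair of bases, the core of an IRF site, was in 3.44%. Neither was in a window of the members. A match of letters is a description of the sequence and says nothing of binding in these cells, and the lack of one says only that these letters are not in the window.

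A barcode was taken as a cell if it had from 500 to 5000 detected genes and a mitochondrial share below 7.5% of UMIs, where a unique molecular identifier (UMI) counts 1 captured transcript molecule. The saline library held 8662 such cells with 77814108 UMIs and a median of 6474.5 UMIs a cell, and the NP library held 8333 cells with 72383286 UMIs and a median of 6008. Clusters were named by marker genes, and each name stands for cells like that type. In each class and library the listed markers were more than 2-fold above the remaining cells, apart from 2 of 12 in saline and 1 of 12 in NP NK cells and 1 each in group 2 innate lymphoid cells, mature dendritic cells and monocytes of the NP library. The missing NK markers were Klra8, at 0 in both libraries, and Klra9, at 0 in saline. Clusters that met no single list stayed unnamed and held 6.65% of saline and 9.60% of NP cells. Neutrophils were 64.5% of saline and 37.2% of NP cells, monocytes 8.81% and 17.1%, endothelial cells 4.18% and 16.4%, NK cells 1.40% and 1.58%, T cells 4.94% and 4.25%, and alveolar macrophages 1.67% and 2.44%. The libraries shared 21 barcodes, 0.242% of saline and 0.252% of NP cells, and none of these held an Ifng UMI.

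Over all cells, transcripts of Ifng, of both IL-12 receptor chains, of Il15ra and of Il18 were higher in the NP library, Il12a was lower, and Tbx21, Il15 and Il18r1 had intervals that included no difference. Ifng had 207 UMIs in saline and 363 in NP cells, or 2.66 and 5.02 CPM, UMIs scaled to a total of 1000000 in the cells described, a log2 ratio of NP over saline of 0.91 (0.66 to 1.17). Il12rb2 had 113 and 207 UMIs (0.98, 0.64 to 1.32), and Il12rb1 had 34 and 60 (0.92, 0.29 to 1.58). The ratios of both IL-12 receptor chains were thus near that of Ifng. The interval of Il12rb1 was wider than those of Ifng and Il12rb2, and it alone of these included the median of all genes given below. Il15ra had 448 and 717 UMIs (0.78, 0.61 to 0.96), and Il18 had 2650 and 3763 (0.61, 0.54 to 0.68). Il12a, which encodes the alpha subunit of IL-12, had 1055 and 677 UMIs, 13.6 and 9.35 CPM (-0.54, -0.68 to -0.40).

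The libraries differed in their mix of cells, and the median of all 15757 genes with at least 20 UMIs stood at 0.39 on the log2 scale. The members are therefore best read against that value. Tbx21 had 138 and 149 UMIs (0.22, -0.13 to 0.56), and Il15 had 853 and 867 (0.13, -0.01 to 0.27), so both stood below the median of all genes. Centred on the median of well-measured genes, Tbx21 turned to -0.16 and Il15 to -0.24. Il18r1 had 1069 and 952 UMIs (-0.06, -0.19 to 0.06). Il12b, the beta subunit that IL-12 shares with IL-23, had 1 and 13 UMIs, too few to be counted among the genes tested. None of the 9 remaining members reached a 2-fold difference in either direction, while 14.8% of all genes tested were at least 2-fold higher and 1.85% at least 2-fold lower in NP.

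The difference over all cells was split by arithmetic into a part from the mix of classes and a part from the level inside them. With saline levels kept and NP class shares used, the log2 ratio was 0.50 for Ifng, and with NP levels and saline shares it was 0.40. For Il15ra these values were 0.42 and 0.43, and for Il12rb1 they were 0.40 and 0.44. Both parts were thus of like size for these 3 genes. For Ifng the level part also took in few cells outside the NK and T cell classes. Unnamed cells had 5 Ifng UMIs in saline and 27 in NP, of which 13 were in 1 NP cell. Neutrophils had 0 and 5, and endothelial cells 0 and 7, of which 6 were in 1 cell. Ifng was 0.744 CPM in saline and 3.31 CPM in NP for unnamed cells, and 0 and 0.206 CPM for neutrophils. The level part weighted these differences by the saline shares of UMIs, 8.64% and 61.7%. It is thus not the level part of NK and T cells alone, which was not worked out. For Il18 the mix gave 0.71 and the levels -0.04, and for Il12rb2 the mix gave 0.81 and the levels 0.34. For Il15 the mix gave -0.16 and the levels 0.55, whereas for Tbx21 the mix gave 0.53 and the levels -0.29. The near-equal totals of Il15 and Tbx21 were thus sums of opposite parts. For Il12a both parts were below 0, at -0.25 and -0.43.

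**Figure D1:**
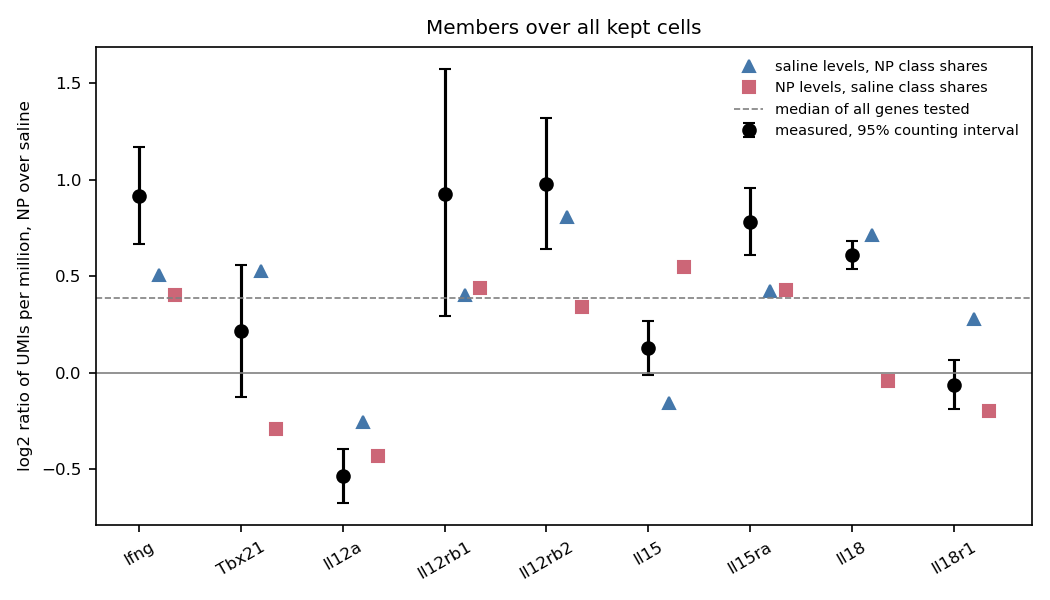
Log2 ratio of CPM, NP over saline, over all kept cells for 9 members (points, bars are 95% counting intervals), with the ratio from class shares alone (triangles) and from class levels alone (squares). Ifng (0.91), Il12rb2 (0.98) and Il15ra (0.78) stand above the median of all genes (dashed line, 0.39), Il12a (-0.54) stands below 0, and the triangles and squares of Il15 and Tbx21 lie on opposite sides of 0.

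Ifng transcripts came from NK cells and, to a lesser extent, from T cells in both libraries. NK cells, which kill target cells without a rearranged receptor, held 145 of 207 Ifng UMIs in saline, or 70.0% (exact binomial 63.3% to 76.2%), and 246 of 363 in NP, or 67.8% (62.7% to 72.6%). They were 121 saline and 132 NP cells, so a small class held most of the transcript. NK and T cells together held 96.6% (93.2% to 98.6%) of Ifng UMIs in saline and 89.0% (85.3% to 92.0%) in NP. In endothelial cells 0 of 362 saline and 2 of 1366 NP cells had an Ifng UMI, and in B cells 0 of 405 and 0 of 529 did, at median depths of 2944 and 2994.5 UMIs in endothelial cells and 4146 and 4296 in B cells. Taking 3 counts as the limit that a count of 0 allows, up to 0.567% of the 529 NP B cells and up to 0.741% of the 405 saline B cells could hold an Ifng UMI at these depths, which sets no limit on cells that express the gene.

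Within NK cells Ifng stood at 242 CPM (204 to 285) in saline and 307 CPM (270 to 348) in NP, a log2 ratio of 0.34 (0.04 to 0.65). The median over 6574 genes in NK cells was -0.06. Giving each NK cell equal weight took the ratio to 0.04, and without the cell of most Ifng UMIs in each library it was 0.36. An Ifng UMI was found in 59 of 121 saline NK cells, or 48.8% (39.6% to 58.0%), and in 75 of 132 NP cells, or 56.8% (47.9% to 65.4%). The NK cells of the NP library were deeper, with a median of 5528.5 UMIs against 4390. After each cell was thinned to 1000 UMIs the shares were 20.7% (13.8% to 29.0%) and 16.7% (10.7% to 24.1%), the opposite order, and at 2000 UMIs they were 26.7% and 29.5%. No order in the share of Ifng-positive NK cells could therefore be read.

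The Ifng UMIs of NK cells were spread unevenly over cells. In saline 31 NK cells had 1 UMI, 21 had 2 to 4 and 7 had 5 or more, and the 5 highest cells held 35.9% of the NK total. In NP these numbers were 26, 39 and 10, and the 5 highest cells held 32.5%. At least 10 UMIs were found in 3 saline and 7 NP cells, with a highest count of 15 in saline and 24 in NP. Most positive NK cells thus held few molecules in both libraries.

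**Figure D2:**
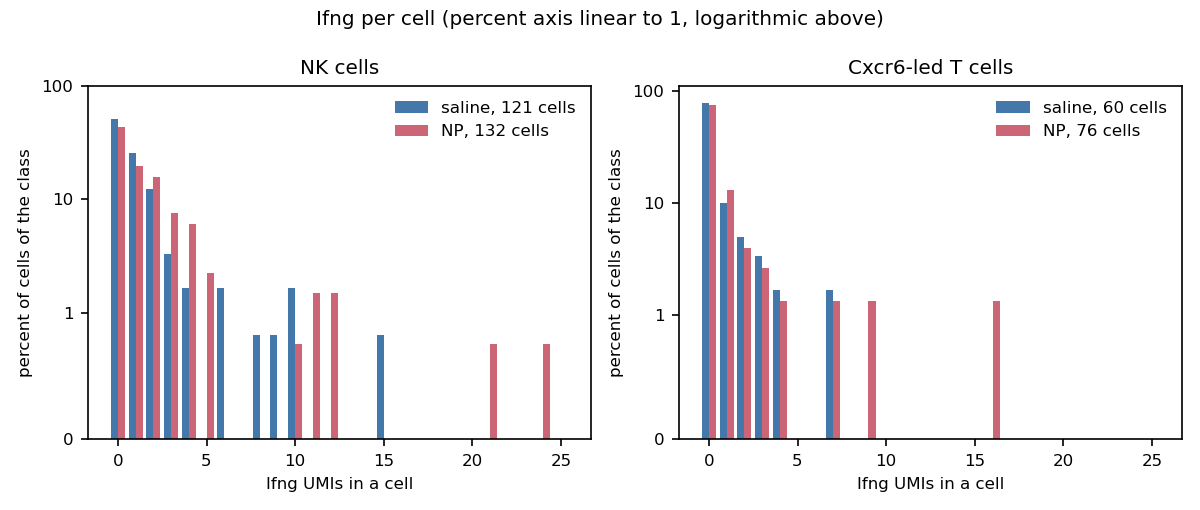
Percent of cells (linear to 1, logarithmic above) by number of Ifng UMIs in a cell, for NK cells and for the T cell cluster led by Cxcr6, saline and NP. Most cells hold 0 to 4 UMIs in both libraries, and the highest NK cells hold 15 UMIs in saline and 24 in NP.

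Among T cells, Ifng was concentrated in 1 cluster led by Cd3g and Cxcr6, a chemokine receptor of tissue-resident and effector lymphocytes. All T cells together had 55 Ifng UMIs in 428 saline cells and 77 in 354 NP cells, 20.1 and 32.2 CPM (log2 ratio 0.68, 0.16 to 1.21). The ratio was 0.19 when cells were limited to under 5% mitochondrial UMIs and 0.24 with equal weight for each cell. The Cxcr6-led cluster held 29 UMIs in 60 saline cells and 58 in 76 NP cells, 80.6 and 120 CPM (0.58, -0.09 to 1.27). Of its cells, 13 in saline and 19 in NP had an Ifng UMI, and the highest cell had 7 and 16 UMIs. This cluster made up 359956 of 2734080 UMIs of all genes in saline T cells and 483038 of 2390320 in NP T cells. The ratio of all T cells thus also carries a difference in mix, and the part of that mix was not tested.

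The Cxcr6-led cluster was itself a mixture of T cells. In saline, 7 of its cells carried Cd8a or Cd8b1 without Cd4 and held 6 Ifng UMIs, 19 carried Cd4 alone and held 13, and 33 carried neither and held 10. In NP, 17 cells with Cd8a or Cd8b1 held 33 Ifng UMIs, 31 with Cd4 held 7, and 28 with neither held 18. The Cd8-carrying cells of the NP library thus held more Ifng than its Cd4-carrying cells, in counts that rest on 8 and 6 positive cells. Trdc and Tcrg-C1, genes of gamma-delta T cells, were also found in this cluster. In saline 10 and 15 of 60 cells carried them, and in NP 6 and 13 of 76. Regulatory T cells, named by Foxp3, Ikzf2 and Ctla4, had 13 and 18 Ifng UMIs, of which 11 in saline were in 1 cell. The other CD8 T cells had 5 and 1 UMIs, the other CD4 T cells 8 and 0, and group 2 innate lymphoid cells 0 and 0.

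Outside lymphoid clusters Ifng was rare. Clusters of NK cells, T cells, innate lymphoid cells and 2 unnamed clusters of T cell genes held 205 Ifng UMIs in saline (99.0%) and 336 in NP (92.6%). Elsewhere, 2 saline cells held 2 UMIs and 8 NP cells held 27. Of those 8 NP cells, 6 had at least 3 UMIs of NK or T cell genes and held 25 of the 27 UMIs, while 0.463% of all NP cells outside lymphoid clusters had that many. The highest was 1 cell with 13 UMIs in an unnamed cluster led by Alox15 and Apoe. Barcodes under 50 UMIs, which reflect RNA free in the droplets, had 10 Ifng UMIs in saline (2.30 CPM) and 23 in NP (5.20 CPM), values near those of all cells.

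**Figure D3:**
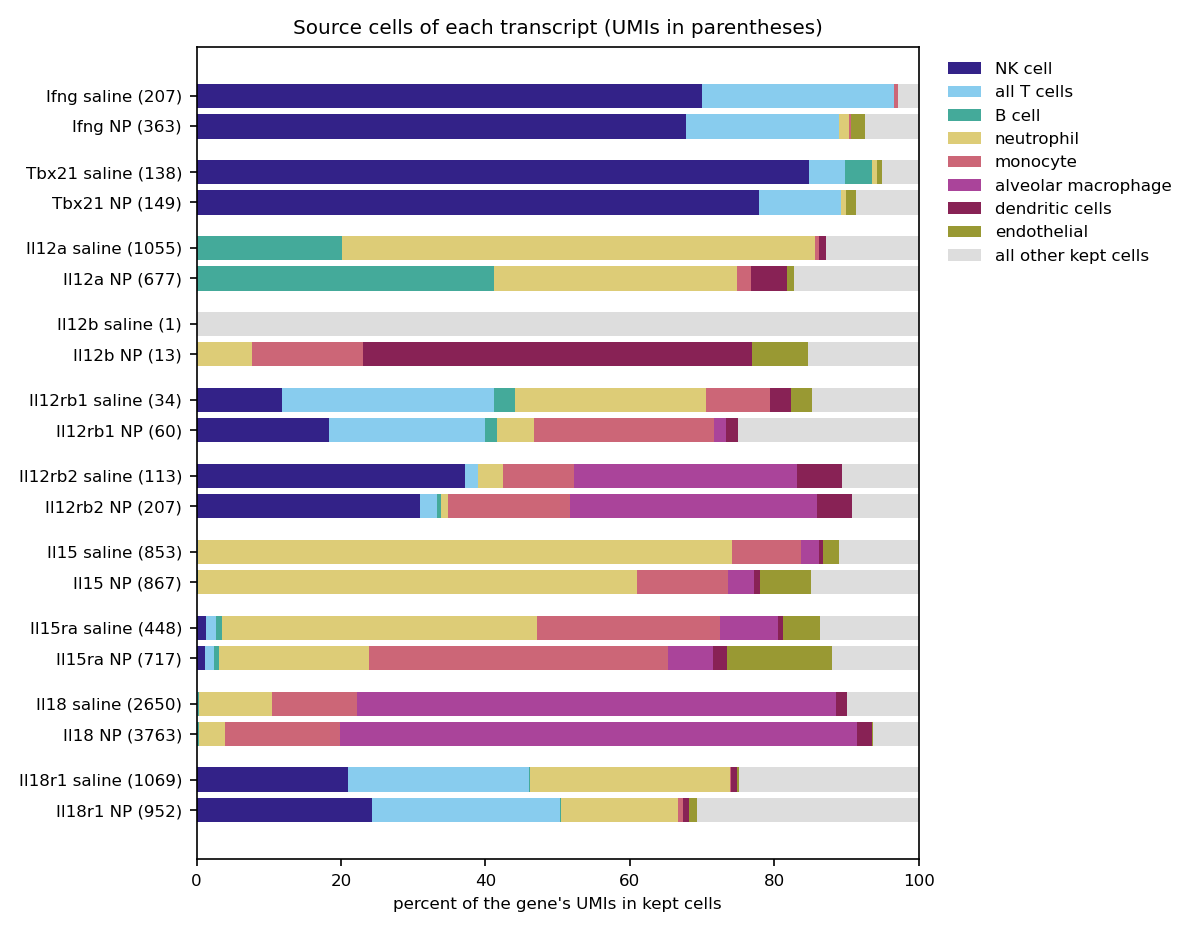
Percent of each member's UMIs held by each cell class, saline above NP for each gene, with the UMI count in parentheses. Ifng and Tbx21 lie mostly in NK cells, Il18 in alveolar macrophages and Il15 in neutrophils, while Il12a lies in neutrophils and B cells and the NP bar of Il12b rests on 13 UMIs.

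Tbx21, which encodes T-bet, was in NK cells more strictly than Ifng. NK cells held 117 of 138 Tbx21 UMIs in saline (84.8%, 77.7% to 90.3%) and 116 of 149 in NP (77.9%, 70.3% to 84.2%). Its level in NK cells was lower in NP, at 196 CPM (162 to 234) in saline and 145 CPM (120 to 174) in NP, a log2 ratio of -0.43 (-0.82 to -0.05). The share of NK cells with a Tbx21 UMI was 64.5% in saline and 52.3% in NP, and 21.5% and 12.1% after thinning to 1000 UMIs, the same order as the level. In T cells Tbx21 had 7 UMIs in 6 saline cells and 17 in 14 NP cells, 2.56 and 7.11 CPM (1.47, 0.13 to 2.99). The Cxcr6-led cluster held 6 and 12 of these UMIs, at 16.7 CPM (6.12 to 36.3) and 24.8 CPM (12.8 to 43.4), intervals that overlapped. That cluster was 60 of 428 saline and 76 of 354 NP T cells, so the mix of T cells also differed. The NK and T cell ratios lay on opposite sides of 0 with intervals that did not include 0, and the difference between them was not tested.

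Il12a came mainly from neutrophils and B cells, which carried it at different levels. Neutrophils had 691 UMIs in 5586 saline cells and 228 in 3099 NP cells, 14.4 CPM (13.3 to 15.5) and 9.40 CPM (8.22 to 10.7), a log2 ratio of -0.61 (-0.84 to -0.40). They held 65.5% (62.5% to 68.4%) of Il12a UMIs in saline and 33.7% (30.1% to 37.4%) in NP. Both shares were smaller when each cell was classed by its own highest marker score. B cells had 212 and 279 UMIs, 113 CPM (98.4 to 129) and 114 CPM (101 to 128), a log2 ratio of 0.01 (-0.25 to 0.28), and held 20.1% and 41.2%. The interval for B cells thus included no difference, while that for neutrophils lay below 0. Shares of cells with a UMI had the same order, 32.8% and 34.4% in B cells, and 8.34% and 4.74% in neutrophils, or 10.1% and 10.4%, and 2.10% and 1.16%, after thinning to 1000 UMIs. In endothelial cells 0 of 362 saline and 6 of 1366 NP cells had an Il12a UMI, and in NK cells 0 of 121 and 0 of 132 did.

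Neutrophil clusters differed in Il12a, and different clusters made up most of the class in each library. The clusters led by Saa3 and by Hist1h4i held 29.1% and 24.2% of saline neutrophils and had Il12a at 31.3 and 31.6 CPM there. In NP the same clusters held 10.8% and 9.65% of neutrophils and had 23.0 and 7.42 CPM. The largest NP cluster, led by Hbb-bt and Ccrl2 with 25.9% of neutrophils, had 27.3 CPM in saline and 23.8 CPM in NP, and the cluster of late granule genes led by Ltf and Camp had 0.674 and 1.23 CPM. Hbb-bt is a hemoglobin gene, which can come from lysed red cells and was not used for clustering. With saline levels and NP cluster shares the log2 ratio of Il12a in neutrophils was -0.20, and with NP levels and saline shares it was -0.80. By this arithmetic, with clusters weighted by saline shares, the lower total went more with levels within clusters than with the change of clusters. The fall was not in every cluster, and 7.42 CPM rested on 8 UMIs. Levels were lower in NP in clusters led by Retnlg (12.2 and 6.40 CPM), Prok2 (4.94 and 1.98) and Gm13822 (11.3 and 5.92). They were not lower in clusters led by Cxcl10 (15.5, on 3 UMIs, and 19.5) and Ube2c (1.36 and 2.59). An unnamed cluster led by Igha and Jchain, genes of antibody-secreting cells, scored highest for B cells (5.41), with neutrophils second (2.66). It had 64 and 56 Il12a UMIs, 41.8 and 49.4 CPM, and which of these cell types carried them could not be told.

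Il12b was nearly undetected among kept cells. The saline library had 1 UMI, in a fibroblast, and the NP library had 13 in 9 cells, of which 6 were in 2 mature dendritic cells and 5 in 1 of those. With the saline count set to 3, the log2 ratio was 2.22, and its interval from the counts as measured was 1.07 to 9.21. Il12a and Il12b were found together in 1 saline cell and in no NP cell. A further NP barcode, not kept because 13.6% of its UMIs were mitochondrial, held 61 Il12b UMIs among 2510 in all, so 1 barcode held more than all kept cells together. It had 53 UMIs of Cd74, of the class II antigen pathway, and 2 of Il27, and none of Ccr7, Ccl22 or Fscn1, markers of mature dendritic cells. These markers were also at 0 in 1 of the 2 mature dendritic cells with Il12b, which had 15142 UMIs in all and 195 of Cd74. With the mitochondrial limit at 15% the log2 ratio of Il12b was 4.72. Barcodes with under 50 UMIs held 1 Il12b UMI in saline and 11 in NP. No cluster was named as type 1 conventional dendritic cells, although their markers were searched. The dendritic cell classes were type 2 conventional, mature and plasmacytoid cells, so the counts do not describe type 1 cells as a class.

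With cells classed by cluster, Il15 came mostly from neutrophils in both libraries. Neutrophils had 630 UMIs in saline and 527 in NP, 13.1 CPM (12.1 to 14.2) and 21.7 CPM (19.9 to 23.7), a log2 ratio of 0.73 (0.56 to 0.90). They held 73.9% (70.8% to 76.8%) and 60.8% (57.4% to 64.0%) of Il15 UMIs. When each cell was instead classed by its own highest marker score, neutrophils held a minority of Il15 UMIs in both libraries. Their ratio was then above 0 but below this interval. Of saline neutrophils 9.95% had a UMI, and of NP neutrophils 13.9%, and these shares were 2.26% and 3.65% after thinning to 1000 UMIs, the same order. Monocytes had 82 and 109 UMIs, 7.24 and 5.24 CPM (-0.47, -0.89 to -0.04), the opposite direction. Endothelial cells had 19 and 62 UMIs, 14.6 and 11.9 CPM (-0.30, -1.06 to 0.53), and basophils or mast cells had 9 and 12. In NK and T cells together 2 of 549 saline and 1 of 486 NP cells had an Il15 UMI, and in B cells 0 of 405 and 1 of 529 did.

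Il15 was highest in 3 neutrophil clusters, of which 2 held more and 1 held fewer cells in NP. Over both libraries Il15 stood at 61.1 CPM (52.1 to 71.2) in the cluster led by Cxcl10 and Rsad2, genes induced by interferons, which held 39 saline and 500 NP cells. It stood at 50.2 CPM in the cluster led by Hbb-bt and Ccrl2, with 297 saline and 804 NP cells, and at 45.9 CPM in the cluster led by Hist1h4i, with 1353 and 299 cells. It was 1.66 CPM in the cluster led by Ltf and Camp and 2.49 CPM in the cluster led by Prok2 and Ggt1. With saline levels and NP cluster shares the log2 ratio of Il15 in neutrophils was 0.64, and with NP levels and saline shares it was 0.35. In the Cxcl10-led cluster itself Il15 was 56.8 CPM in saline, on 11 UMIs, and 61.4 CPM in NP. The cluster led by Gm13822 and Rtp4, which also had Oasl1 and Isg15 among its leading genes, held 196 saline and 400 NP cells. Il15 there was lower, at 20.6 CPM in saline and 15.4 CPM in NP.

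Il15ra, the chain that binds IL-15 and presents it to other cells, was higher in NP in both of its main myeloid sources. Monocytes had 114 and 297 UMIs, 10.1 CPM (8.30 to 12.1) and 14.3 CPM (12.7 to 16.0), a log2 ratio of 0.50 (0.19 to 0.83). Neutrophils had 195 and 149 UMIs, 4.06 and 6.14 CPM (0.60, 0.28 to 0.91). Endothelial cells had 23 and 104 UMIs, 17.7 and 19.9 CPM (0.17, -0.49 to 0.89), and held 5.13% of Il15ra UMIs in saline and 14.5% in NP. Monocytes held 25.4% and 41.4%, and neutrophils 43.5% and 20.8%. NK and T cells together had 12 and 17 UMIs, and B cells 4 and 5.

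By cluster, the neutrophil difference lay in clusters that were small in saline. The Cxcl10-led cluster had 1 Il15ra UMI in saline and 61 in NP, 5.17 CPM (0.131 to 28.8) and 24.3 CPM (18.6 to 31.3). The saline interval, from 39 cells, included the NP value. The Hbb-bt-led cluster had 2 and 35 UMIs, 1.56 and 10.3 CPM. The Gm13822-led cluster, also small in saline, had 8 and 17 UMIs, 5.31 and 5.03 CPM. The Saa3-led cluster had 71 and 5 UMIs, 7.58 and 2.88 CPM, a lower level in NP. With saline levels and NP cluster shares the log2 ratio of Il15ra in neutrophils was -0.28, and with NP levels and saline shares it was -0.38, so neither part alone gave a higher value in NP. Among monocytes, different clusters were largest in each library. In saline it was the cluster led by Vcan and Ccr2, with 33.2% of monocytes against 4.62% in NP. In NP the largest were those led by Aif1 and class II genes, with 25.1% of monocytes, and by Cd300e, with 24.8%. Il15ra stood at 5.51 and 13.8 CPM in the Aif1-led cluster, at 9.54 and 21.0 CPM in the Cd300e-led cluster, and at 11.8 and 9.70 CPM in the Vcan-led cluster. In the cluster led by Ifi44, of interferon-induced genes, with 30 saline and 264 NP cells, it was 20.1 and 20.3 CPM.

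**Figure D4:**
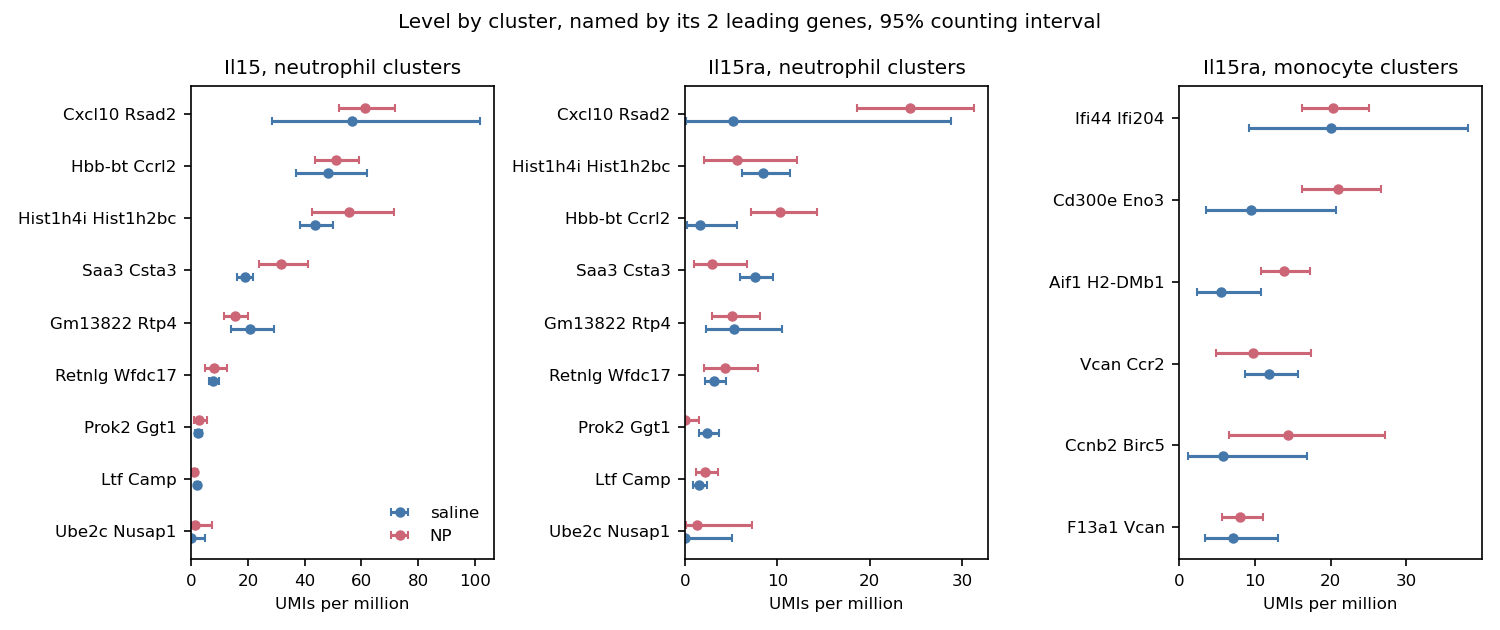
CPM of Il15 in neutrophil clusters and of Il15ra in neutrophil clusters and 6 of 7 monocyte clusters, each cluster named by its leading genes, saline and NP (bars are 95% counting intervals). Il15 is highest in the Cxcl10-led cluster (61.1 CPM over both libraries) and near 0 in the Ltf-led cluster (1.66 CPM), and Il15ra in the Ifi44-led monocyte cluster is 20.1 CPM in saline and 20.3 CPM in NP.

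Il18, an IL-1 family cytokine that is cut by caspase-1 before release, came mostly from alveolar macrophages, and its level in them differed between the libraries by less than counting error. Alveolar macrophages had 1760 UMIs in 145 saline cells and 2696 in 203 NP cells, 681 CPM (649 to 713) and 680 CPM (655 to 707), a log2 ratio of 0.00 (-0.09 to 0.09). They held 66.4% (64.6% to 68.2%) and 71.6% (70.2% to 73.1%) of Il18 UMIs, and 99.3% and 99.0% of them had a UMI, or 46.5% and 42.9% after thinning to 1000 UMIs. Monocytes had 309 and 599 UMIs, 27.3 and 28.8 CPM (0.08, -0.12 to 0.28), and neutrophils 270 and 136 (0.00, -0.31 to 0.30). In endothelial cells 0 of 362 and 4 of 1366 cells had a UMI, and in B cells 4 of 405 and 9 of 529 did. In unnamed cells Il18 had 250 and 218 UMIs, 37.2 and 26.7 CPM, a log2 ratio of -0.48 with an interval below 0 (-0.75 to -0.21). Over all cells the log2 ratio was 0.61 (0.54 to 0.68).

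Other Il18 sources were small or lay outside the limits on cells. Mature dendritic cells had 22 UMIs in 11 saline cells, whose median depth was only 2159 UMIs, and 65 in 37 NP cells, 557 CPM (349 to 843) and 126 CPM (97.1 to 160). An unnamed cluster led by Fabp1 and Ear2 scored highest for alveolar macrophages (5.07), with neutrophils second (2.09). It had 87 and 93 UMIs, 369 and 368 CPM, and was not clearly a source apart from alveolar macrophages. Barcodes with over 5000 genes, 119 in saline and 236 in NP, were not kept and held 716 and 1497 Il18 UMIs. With these barcodes included, the log2 ratio of Il18 over all cells was 0.69 and that in alveolar macrophages -0.09.

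Il12rb2, the chain of the IL-12 receptor that carries the STAT4 docking site, was in NK cells and also in alveolar macrophages. NK cells had 42 and 64 UMIs, 70.2 CPM (50.6 to 94.9) and 79.9 CPM (61.6 to 102), a log2 ratio of 0.19 (-0.40 to 0.79), and held 37.2% and 30.9% of the gene's UMIs. Alveolar macrophages had 35 and 71 UMIs, 13.5 and 17.9 CPM (0.40, -0.20 to 1.03), and held 31.0% and 34.3%. Monocytes had 11 and 35 UMIs (0.79, -0.22 to 1.92), T cells 2 and 5, and neutrophils 4 and 2. In NK cells 28.1% in saline and 37.9% in NP had a UMI, but after thinning to 1000 UMIs these shares were 9.09% and 6.06%, so no order was read from them. In endothelial cells 0 of 362 and 0 of 1366 did. The interval included 0 in NK cells, alveolar macrophages and monocytes taken singly. For NK and T cells together, with 44 and 69 UMIs, the log2 ratio was 0.71 (0.15 to 1.29). NK cells held 42 and 64 of these UMIs, and they were 121 of 549 saline and 132 of 486 NP cells of this joint class. They made up 598461 of its 3332541 UMIs of all genes in saline and 800552 of 3190872 in NP. The joint ratio thus also carries a difference in mix, and over all cells the ratio was 0.98 (0.64 to 1.32).

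Il12rb1, shared by the receptors of IL-12 and IL-23, had 4 UMIs in saline and 11 in NP NK cells, 6.68 CPM (1.82 to 17.1) and 13.7 CPM (6.86 to 24.6). T cells had 10 and 13 UMIs (0.57, -0.73 to 1.92), of which the Cxcr6-led cluster held 8 and 5. Monocytes had 3 and 15 UMIs in cells of 1 UMI each, 0.265 and 0.721 CPM. NK cells did not reach the 20 UMIs asked for a ratio of this gene. At this depth no difference of Il12rb1 within a class was detectable.

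Il18r1, the ligand-binding chain of the IL-18 receptor, was found in more cell types than Ifng. In NK cells it had 224 and 231 UMIs, 374 CPM (327 to 427) and 289 CPM (253 to 328), a log2 ratio of -0.38 (-0.65 to -0.10), so it was lower in NP as Tbx21 was. The Cxcr6-led T cells had 129 and 165 UMIs, 358 and 342 CPM (-0.07, -0.41 to 0.27). Basophils or mast cells had 67 UMIs in 21 saline cells and 89 in 39 NP cells, 385 CPM (298 to 488) and 330 CPM (265 to 407). These 3 classes carried the gene at like levels. CD4 T cells had 74 and 36 UMIs (-0.48, -1.09 to 0.12) and CD8 T cells 41 and 18 (-0.75, -1.63 to 0.08). Neutrophils had 296 and 155 UMIs at 6.16 and 6.39 CPM (0.05, -0.24 to 0.34). Epithelial cells had 45 and 67 UMIs, 68.4 and 75.0 CPM, and were 26 cells of a Scgb1a1-led airway cluster and 24 of a Sftpc-led alveolar cluster in saline, against 9 and 42 in NP. An unnamed cluster led by Msln and Upk3b, genes of mesothelium, had 65 and 21 Il18r1 UMIs, 165 and 227 CPM, and 55 and 17 Il18 UMIs. In B cells 1 of 405 and 1 of 529 cells had an Il18r1 UMI.

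Set side by side by class, few members were far from equal between the libraries. In NK cells 4 members could be given a ratio and none was past 2-fold, beside 2.36% of 6574 genes at least 2-fold higher and 3.03% lower. In neutrophils none of 5 was past 2-fold, beside 4.6% of genes higher and 3.07% lower, and in monocytes none of 5, beside 3.33% higher and 1.67% lower. In T cells 1 of 4 was past 2-fold, Tbx21, beside 2.74% of genes higher and 1.62% lower. In dendritic cells 1 of 2 was past 2-fold, Il12a with 9 UMIs in saline and 34 in NP (1.15, 0.06 to 2.39), beside 5.49% of genes higher and 3.63% lower. Of the dendritic cell Il12a UMIs, plasmacytoid dendritic cells held 9 and 20 and mature dendritic cells 0 and 10. Dendritic cells were 72 in saline and 115 in NP, with mature cells 11 and 37 of these, so the class also differed in its makeup. The median log2 ratio of the members was -0.09 in NK cells, 0.63 in T cells, 0.05 in neutrophils and 0.08 in monocytes, beside medians over all genes of -0.06, 0.01, -0.12 and -0.03.

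**Figure D5:**
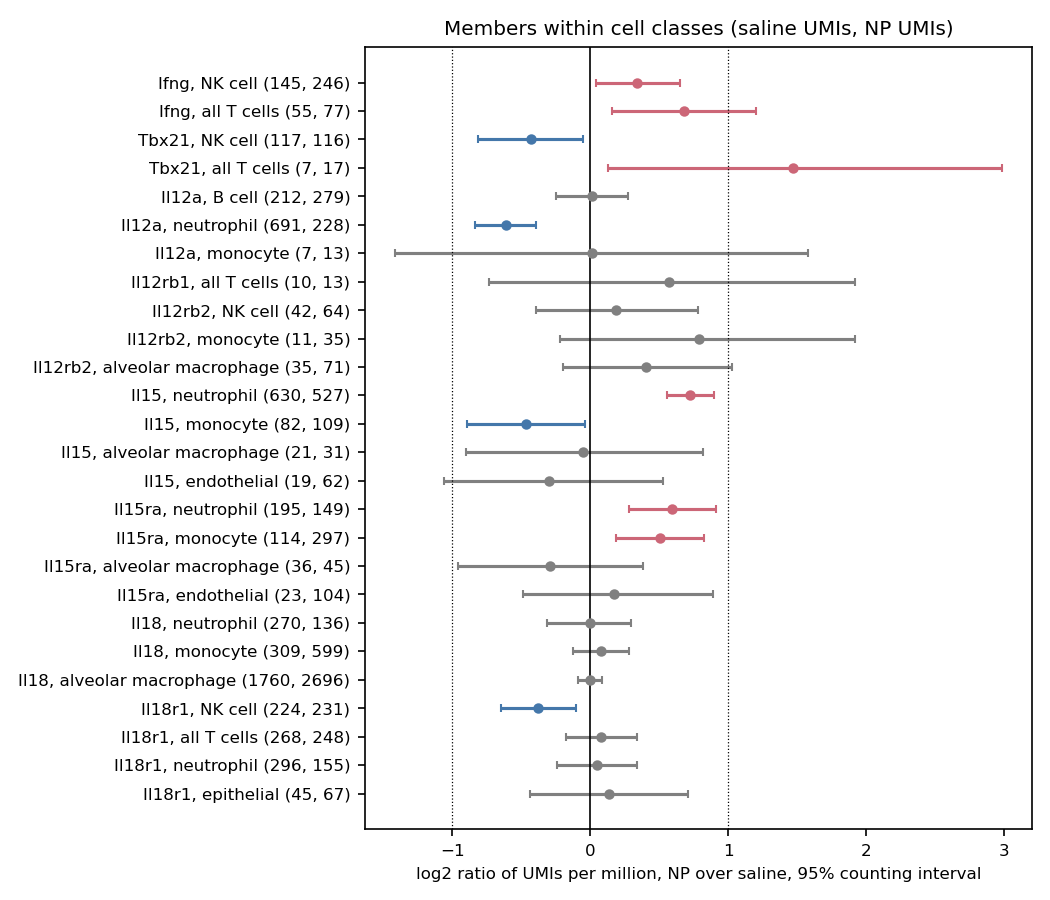
Log2 ratio of CPM, NP over saline, for members within cell classes with their saline and NP UMI counts (bars are 95% counting intervals, dotted lines mark 2-fold). Red intervals lie above 0, blue below 0 and grey include 0. Il15 in neutrophils (0.73) and Il15ra in monocytes (0.50) and neutrophils (0.60) lie above 0, Il12a in neutrophils (-0.61) and Tbx21 in NK cells (-0.43) lie below 0, and Il18 in alveolar macrophages (0.00) has the narrowest interval.

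Within NK cells, the other members were found in Ifng-positive and Ifng-negative cells at shares whose intervals overlapped. Of Ifng-positive NK cells, 64.4% (50.9% to 76.4%) in saline and 54.7% (42.7% to 66.2%) in NP also had a Tbx21 UMI, against 64.5% and 49.1% of the remaining NK cells. For Il18r1 these shares were 76.3% and 81.3%, against 69.4% and 63.2%. For Il12rb2 they were 27.1% and 37.3%, against 29.0% and 38.6%. The widest gap was thus that of Il18r1 in NP, 81.3% (70.7% to 89.4%) against 63.2% (49.3% to 75.6%), where the Ifng-positive cells were also deeper, with a median of 5905 UMIs against 5024. Of monocytes with Il15, 16.2% in saline and 17.9% in NP also had Il15ra, against 12.3% and 16.3% of those without.

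Across 11 classes in each library, 22 points, the genes whose level was most like that of Ifng were Klrc2 (Pearson r = 0.98), Klrc1, Xcl1, Fasl and Klrk1. Klrc1, Klrc2 and Klrk1 encode NK receptors, Xcl1 a chemokine that draws dendritic cells, and Fasl the ligand of a death receptor. For Il15 they were Cpd (0.93), Ulk1, Hlx, Cdc42ep2 and Qsox1, and for Il18 they were Ear2 (0.98), Tbxas1, Rims3, Pparg and Tfec. Ear2 and Pparg are genes of alveolar macrophages. These points share libraries and depth, and the values are descriptions of where each transcript was found. Il12b had under 100 UMIs and was given no such list.

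The surrounding pathway was described by 51 genes of 8 groups. Over all cells 8 of 50 measured genes were at least 2-fold higher in NP and 0 lower, beside 14.8% and 1.85% of all genes, and their median log2 ratio was 0.49 beside 0.39 for all genes. In neutrophils 7 of 41 were higher and 0 lower, beside 4.6% and 3.07% of all genes. In monocytes 8 of 44 were higher and 1 lower, beside 3.33% and 1.67%, and in T cells 8 of 42 were higher and 0 lower, beside 2.74% and 1.62%. The median log2 ratio in T cells was 0.25, beside 0.01 for all genes. It was -0.003 in the Cxcr6-led cluster, 0.08 in CD4 and -0.10 in CD8 T cells, beside -0.002, -0.05 and -0.04. T cells also differed in makeup, with 60 saline and 76 NP cells in the Cxcr6-led cluster and 239 and 157 CD4 T cells. The part of this makeup in the count was not tested. In dendritic cells 4 of 41 were higher and 3 lower, beside 5.49% and 3.63%, and in NK cells 2 of 33 were higher and 0 lower, beside 2.36% and 3.03%. The brakes on cytokine signaling had the most genes past 2-fold over all cells, 4 of 7, with a median of 1.01.

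Among brakes, Socs1, an inhibitor of JAK kinases that is induced by interferon gamma, had 255 UMIs in saline and 821 in NP neutrophils, 5.31 and 33.8 CPM (log2 ratio 2.67, 2.47 to 2.88). In monocytes it had 28 and 164 UMIs (1.67, 1.09 to 2.31) and in NK cells 35 and 88 (0.91, 0.33 to 1.52). Il10, an anti-inflammatory cytokine, had 0 UMIs in saline and 21 in 11 NP NK cells. With the saline count set to 3 the log2 ratio was 2.39, and the interval from the counts as measured began at 1.96 and had no upper end. In monocytes Il10 had 0 and 21 UMIs, and in dendritic cells 0 and 41, of which 38 were in 1 cell. Il18bp, the secreted decoy that binds IL-18, had 597 and 889 UMIs in neutrophils (1.56, 1.41 to 1.71) and 27 and 247 in monocytes (2.32, 1.74 to 2.95). The IL-18 decoy was thus higher in both classes, while the intervals for Il18 itself included no difference in either.

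Of genes that act with IL-12 and IL-15, Il27, a cytokine of the IL-12 family, had 57 UMIs in saline and 310 in NP monocytes (1.57, 1.15 to 2.00), and Il23a, the partner of Il12b in IL-23, had 37 and 45 in neutrophils (1.27, 0.61 to 1.94). Il2rg, the common gamma chain used by IL-15, had 485 and 1944 UMIs in monocytes (1.13, 0.98 to 1.27) and 311 and 381 in neutrophils (1.28, 1.06 to 1.50). Il21r had 33 and 204 UMIs in monocytes (1.75, 1.22 to 2.33). In T cells Il2 had 18 and 41 UMIs (1.38, 0.55 to 2.27). In NK cells 2 of 6 genes of the IL-15 group and 1 of 6 of the IL-12 family had enough UMIs for a ratio, and 0 of these were past 2-fold. Differences between classes were not tested.

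Of the IL-18 group, Il18rap, the signaling partner of Il18r1, had 129 UMIs in saline and 97 in NP monocytes (-1.29, -1.68 to -0.90), and 24 and 56 in T cells (1.42, 0.70 to 2.17), opposite directions whose difference was not tested. In NK cells it had 277 and 388 UMIs (0.07, -0.16 to 0.29). Casp4, an inflammatory caspase, had 13 and 43 UMIs in NK cells (1.31, 0.38 to 2.33). Among transcription factors of the Ifng and Il12 loci, Irf1, which is induced by interferon gamma, had 5229 and 7934 UMIs in neutrophils, 109 and 327 CPM (1.59, 1.54 to 1.64), and 895 and 3549 in monocytes (1.11, 1.00 to 1.22). In NK cells Irf1 had 84 and 136 UMIs (0.28, -0.13 to 0.69), and Eomes, a T-box factor related to T-bet, had 299 and 237 (-0.75, -1.01 to -0.50). Stat4, through which IL-12 signals, had 127 and 136 UMIs in NK cells (-0.32, -0.68 to 0.04). Eomes was thus lower in NP NK cells as Tbx21 and Il18r1 were. Eomes, and the NK cell values of Socs1, Il18rap, Irf1 and Stat4, were added after their values were seen. The NP library also held more cells of clusters led by interferon-induced genes. The Cxcl10-led cluster had 500 against 39 neutrophils, the Gm13822-led cluster 400 against 196, and the Ifi44-led cluster 264 against 30 monocytes. Isg15 and Rtp4 were also among the leading genes of the Hbb-bt-led cluster, with 804 against 297 neutrophils. The part of these clusters in the values above was not tested.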

How the data were processed

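Lung cells of 1 saline and 1 NP library, grouped by their labels, were profiled with 10x Genomics chemistry. The authors deposited raw UMI counts per gene and barcode, made with Cell Ranger (6.0 by the submitters' processing notes) on mm10, unfiltered and not normalized. UMIs outside the limits on cells were used only where stated. For clustering, log values of counts scaled to 10000 a cell were used. Leiden clusters at resolution 1 came from 20 neighbors over 30 principal components of 2000 variable genes, without integration. The variable genes left out the members, and also the hemoglobin genes, taken as RNA of lysed red cells. Lymphoid, phagocyte and stromal cells were clustered again. Names come from marker lists, and a cluster in which a second lineage scored at least 0.4 of the first stayed unnamed. Names were rebuilt rather than taken from the study, which can itself make a difference from the study. The level in 1 monocyte cluster is not reported here. Doublets were kept.

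Ratios are of pooled CPM (UMIs scaled to 1000000) with a count under 3 set to 3, for genes with at least 20 UMIs, and intervals are exact (conditional binomial for ratios, Poisson for UMIs, Clopper-Pearson for shares). The calculation was tested on simulated data. Likeness used log2 of CPM plus 10. With 1 library per group no test was possible, and depth was 91168129 saline and 90081747 NP UMIs over all barcodes. The members, gene lists, markers and alternatives were chosen with earlier results of these data known. All members were named. The rule for the pathway groups was up to 3 genes each past 2-fold in a class, and not all that met it are described above. Left out were Il27, Il21r and Socs1, higher in NP dendritic cells, and Il18rap and Stat4, lower there. Also left out were Irak2, Zbtb32, Irf8, Il10 and Il10ra in T cells and Irf8 in neutrophils, all higher in NP. Alternatives changed the limits on genes and mitochondrial UMIs, doublets, resolution, variable genes, class names, scaling, weight, thinning, free RNA and the floor. Removal of the top 4% of doublet scores was chosen after seeing the data. Statistics used SciPy 1.17.1 and NumPy 2.4.6 under Python 3.11.15, and clustering used leidenalg 0.10.2, igraph 0.11.9 and scikit-learn 1.9.0.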

Additional observations from a re-analysis of the deposited data

Results flagged for a closer look

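Il12b, the beta subunit of IL-12, stood at 34.5 CPM in NP barcodes with at least 500 genes and at least 7.5% mitochondrial UMIs, which entered no comparison above, while the 303 saline barcodes of that kind had 0. All 61 of these UMIs were in 1 of the 542 NP barcodes, with 2510 UMIs in all.

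Tbx21 lay in opposite directions in NK cells and T cells, with a log2 ratio of NP over saline of -0.43 (-0.82 to -0.05) in NK cells and 1.47 (0.13 to 2.99) in T cells, on 7 saline and 17 NP UMIs in the latter. Of these T cell UMIs 6 and 12 were in the Cxcr6-led cluster, at 16.7 CPM (6.12 to 36.3) and 24.8 CPM (12.8 to 43.4). That cluster was 60 of 428 saline and 76 of 354 NP T cells, so the mix of T cells also differed. Il15 lay in opposite directions in neutrophils, 0.73 (0.56 to 0.90), and monocytes, -0.47 (-0.89 to -0.04). Each class was 1 library per group, and neither difference was tested.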

How the results depend on the processing

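No paired analysis was possible because each group was 1 library. Removal of doublets by Scrublet's own threshold was not run, since it called 1 of 8662 saline barcodes (0.0115%) and 311 of 8333 NP barcodes (3.73%), so it had not worked in saline. In its place the top 4% of doublet scores were removed in each library, 346 and 333 barcodes. No called ratio among those rerun turned its direction under any alternative. Ratios not rerun included those of pathway genes, of unnamed cells, of Tbx21 in T cells, of Il12a in dendritic cells and of Il12rb2 in NK and T cells together. Thinning was run for shares and not for ratios. Of the alternative values for the principal results, 360 stayed within the counting interval and 58 did not, as follows, with saline before NP where a pair is given. The cause was not tested, except that centring subtracts 1 constant and that thinning leaves fewer UMIs.

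Thinned to 1000 UMIs, NK cells held 76.7% and 75.0% of Ifng, neutrophils 68.9% and 37.4% of Il12a and 82.7% and 73.7% of Il15, alveolar macrophages 48.3% and 58.3% of Il18, and 20.7% and 16.7% of NK cells had Ifng. At 2000 UMIs neutrophils held 29.9% of Il12a in NP and 85.6% and 75.3% of Il15, alveolar macrophages 57.3% and 59.1% of Il18, and 26.7% and 29.5% of NK cells had Ifng. With free RNA subtracted at 5% of UMIs, the ratio of Il12b was 0.52 and alveolar macrophages held 69.9% and 74.4% of Il18.

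Centred on the median of genes with at least 200 UMIs, the ratios over all cells were 0.54 for Ifng, -0.16 for Tbx21, -0.91 for Il12a, 0.60 for Il12rb2, -0.24 for Il15, 0.41 for Il15ra, 0.24 for Il18 and -0.44 for Il18r1. With equal weight per cell they were 0.25 for Ifng, -0.28 for Tbx21, 0.62 for Il12rb2 and 0.37 for Il18, and 0.035 for Ifng in NK cells.

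Under 5% mitochondrial UMIs, Il12a over all cells was -0.69, NK cells held 73.5% of Ifng in NP, neutrophils 72.7% and 43.6% of Il12a and 64.5% of Il15 in NP, and alveolar macrophages 52.6% and 58.7% of Il18. Without the upper gene limit Il18 over all cells was 0.69 and neutrophils held 56.3% of Il15 in NP. At resolution 0.5 alveolar macrophages held 70.2% and 74.0% of Il18. With each cell classed by its own highest marker score, the neutrophil ratio of Il12a was -0.90 and that of Il15 0.42, neutrophils held 38.8% and 15.7% of Il12a and 31.4% and 20.1% of Il15, and alveolar macrophages 71.3% and 75.0% of Il18. Without the top doublet scores, NK cells held 73.9% of Ifng in NP, neutrophils 69.8% of Il12a in saline and 79.1% and 65.7% of Il15, and alveolar macrophages 71.3% and 74.7% of Il18.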

Other observations

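In barcodes with over 5000 detected genes, 119 in saline and 236 in NP, which entered no class, Il18 stood at 166 CPM (154 to 179) in saline and 188 CPM (179 to 198) in NP, and these barcodes held 19.5% and 26.6% of its UMIs. Il12rb2 stood at 4.41 CPM (2.66 to 6.89) and 7.79 CPM (5.97 to 9.98) in them, on 19 and 62 UMIs, which were 12.9% and 21.5% of its UMIs. Ifng had 2 and 1 UMIs there. In barcodes with at least 7.5% mitochondrial UMIs, Il12a stood at 20.4 CPM (12.6 to 31.2) in saline and 19.2 CPM (13.3 to 26.9) in NP, and Il18r1 at 28.2 CPM (18.9 to 40.4) and 20.9 CPM (14.7 to 28.8). Barcodes with under 50 UMIs had Il18 at 38.6 CPM (33.0 to 44.9) and 46.1 CPM (40.0 to 52.9), and Il15 at 12.6 CPM (9.52 to 16.4) and 9.05 CPM (6.46 to 12.3).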
